A study of Mus musculus with 6 samples.

Results

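The S100 genes described here are the 10 genes S100a1, S100a4, S100a6, S100a8, S100a9, S100a10, S100a11, S100a13, S100a14 and S100a16, chosen by name from the 43548 gene identifiers of the expression table. They were measured by mRNA sequencing in Met-1 TripZ-200c cells, which are mouse mammary carcinoma cells of the FVB/nJ strain that carry a doxycycline (Dox)-inducible vector for the microRNA miR-200c. Met-1 cells come from a late-stage tumor of the MMTV-PyMT mouse, in which a viral promoter active in mammary epithelium drives an oncogene. The MinusDox group (n = 3) received the vehicle, water, and the PlusDox group (n = 3) Dox at 1.0 µg/mL, both over 48 h. The vector was common to both groups, and the cells of each group were plated in triplicate. The sample labels name RPMI medium with serum for both groups, whereas the authors' methods name DMEM for these cells. Met-1 TripZ-200c cells are a single clone, sorted for a vector that was silent without Dox. Empty-vector cells are not among these 6 libraries, so an effect of Dox itself and an effect of miR-200c cannot be told apart here. The question of the comparison is how mRNA levels differ once miR-200c is induced.

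S100 proteins are small calcium-binding proteins found in vertebrates. Most form dimers, change shape when calcium binds to their EF-hand loops, and then attach to target proteins such as annexins, cytoskeletal motors and enzymes. Some are also released from cells and act on surface receptors, including RAGE (encoded by Ager) and TLR4. In mammary tumors, S100a4 is known as a metastasis-associated gene that is expressed in mesenchymal cells and fibroblasts, and S100a8 and S100a9 are best known from neutrophils and monocytes. miR-200c belongs to a microRNA family that keeps cells epithelial, mainly by repressing the transcription factors Zeb1 and Zeb2.

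All 10 genes lie on chromosome 3 of the GRCm38 mouse genome, in 2 groups. The first group runs from 90511034 to 90695721 and holds, in order, S100a1, S100a13, S100a14, S100a16, S100a4, S100a6, S100a8 and S100a9. A gap of 2824766 bases separates it from S100a11 (93520488 to 93526287) and S100a10 (93555080 to 93564643). S100a1 and S100a9 are transcribed on the minus strand and the other 8 on the plus strand. S100a1 and S100a13 point away from each other. RefSeq places the S100a1 start further inside the gene than GENCODE does. By GENCODE, 42 bases lie between the 2 starts. The whole stretch between these starts is shown because it is the shortest gap in the group, has a GC content of 54.8% and holds 1 CpG (chr3:90514393-90514434, plus strand, lower case throughout).
S100a1 to S100a13: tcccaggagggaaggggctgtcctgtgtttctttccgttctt

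The sequence of miR-200c-3p was set against the 3′ UTRs of the 10 genes, since a seed match in a 3′ UTR is the usual first criterion for a microRNA target. The mature miRNA is encoded on chromosome 6 (chr6:124718324-124718346, minus strand, RefSeq GRCm38.p6) and is shown with its seed, bases 2 to 8, in capitals. None of the 10 genes had the matching letters CAGTATT on the sense strand of its longest annotated 3′ UTR, and none had a match to bases 3 to 8. Among the genes tested for an effect of Dox, 16.1% (1738 of 10798 with an annotated 3′ UTR) had CAGTATT. The 3′ UTRs of the S100 genes were short, at 68 to 622 bases against a median of 1201 for the genes tested, and 70.1% of the genes tested had a longer one than any S100 gene. The search says only that these letters are not in these windows. For contrast, the 5 matches in the 3′ UTR of Zeb2, a known target, are shown with the match in capitals.
mmu-miR-200c-3p: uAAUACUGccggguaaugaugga
Zeb2 bases 393 to 399: gcactaccatacatCAGTATTttatta
Zeb2 bases 458 to 464: gcactacagtgcatCAGTATTacgatt
Zeb2 bases 820 to 826: tgaagcacccgtgtCAGTATTagacga
Zeb2 bases 905 to 911: ttcattaattttgtCAGTATTacacca
Zeb2 bases 1039 to 1045: catactgtagtgtaCAGTATTatagtt

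The windows from 250 bases before to 50 bases after the RefSeq start were then searched for the 8 S100 genes that have one (S100a10 and S100a14 have none here), 9 windows in all since S100a16 has 2. On either strand, CAGGTG, the E-box that Zeb factors bind, was present in 2 of the 9, those of S100a9 and of 1 of the 2 starts of S100a16, and it was present in 20.2% of all 32851 windows. TATAAA was found in 3 of the 9, those of S100a4, S100a8 and S100a9, against 8.32% of all windows. In S100a4 and S100a8 it began at positions -31 and -30 from the start, and in S100a9 it lay at the start itself. These matches are descriptions of the letters and not of factor binding. The S100a4 window held TATAAA and no CAGGTG, and sequence outside these 300 bases was not searched. An effect of Zeb factors on S100a4 was not tested. In the following 4 stretches the motif is in capitals.
S100a4 (chr3:90603727-90603756, plus strand): ggcctggcagggTATAAAtaggtcagattg
S100a8 (chr3:90669029-90669058, plus strand): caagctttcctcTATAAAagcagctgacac
S100a16 (chr3:90537039-90537068, plus strand): aggtgagagaaaCAGGTGatgagccttctc
S100a9 (chr3:90695757-90695786, minus strand): taccacactgctCACCTGtgaagcaatctt

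Expression was given as FPKM, fragment counts scaled to transcript length and to sequencing depth, so levels of different genes can be set side by side. The FPKM of a library summed to 800267 to 815139, and 16867 to 18012 genes were above 0. The total reads are not in the table. The libraries fitted their labels. Zeb1 was 41.0, 42.1 and 42.3 FPKM without Dox and 19.8, 20.3 and 23.6 with Dox, and Zeb2 fell from 29.3 ± 1.43 to 8.29 ± 0.661 (SD, n = 3 per group; limma adjusted p = 4.48e-05). The hairpin gene Mir200c is listed at 0 in every library, so the table does not measure the induced miRNA itself. Of the epithelial genes, by the same test, Krt18 rose from 93.2 ± 2.78 to 386 ± 19.6 FPKM and Epcam from 0.128 ± 0.0394 to 4.06 ± 0.225, while the mesenchymal gene Vim stood at 3961 ± 110 and 3104 ± 86.9. Epcam and the E-cadherin gene Cdh1 (0.0585 FPKM) were thus near 0 in the untreated carcinoma cells, Pgr is listed at 0 throughout, and Esr1 was at 12.6 to 18.6 FPKM. Without Dox the S100 genes sat beside Vim at 3961 FPKM, Krt18 at 93.2, and Epcam and Cdh1 near 0.

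S100a4 and S100a6 were among the most abundant mRNAs of these cells, S100a4 fell by 33.5% with Dox, and the estimates of the other 7 genes tested were smaller in size. Of the 8 S100 genes that reached the minimum mean of 1 FPKM, 3 fell (S100a4, S100a6 and S100a10), 0 rose and 5 did not pass, by limma on log2(FPKM + 0.1) with Benjamini-Hochberg adjustment over all 12879 genes tested and a threshold of 0.05. Across all genes tested, 7.97% were called lower and 7.06% higher. At an unadjusted p under 0.05, limma gave 2 higher and 4 lower S100 genes, and an unmoderated model on log2(FPKM + 1) gave 0 higher and 3 lower after adjustment. The median log2 fold change was -0.16 over the 8 genes and 0.00 over all genes. Groups did not overlap in 5 of the 8, compared with 35.0% of all genes tested. These p-values measure only the spread between cultures plated in triplicate.

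**Figure D1:**
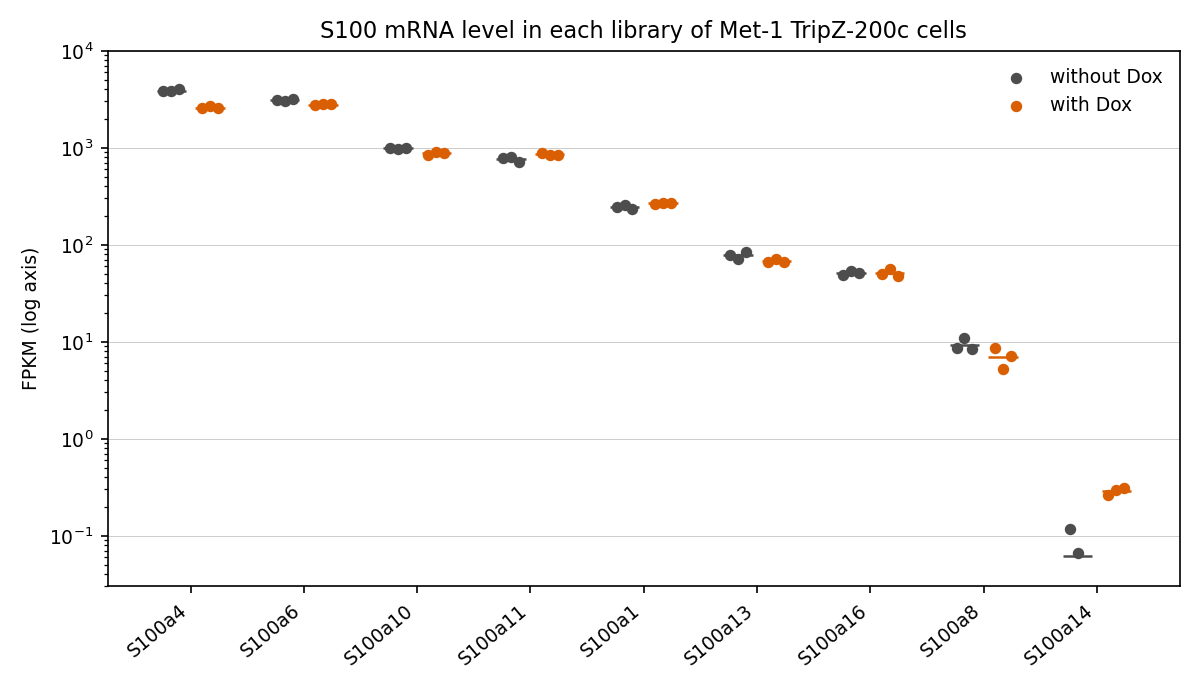
FPKM of 9 S100 genes in each library (points, log axis) with the mean of each group (lines), without Dox in grey and with Dox in orange. S100a9, listed at 0 in every library, and the value of 0 for S100a14 in MinusDox 1 cannot be drawn on a log axis, and the means of the 9 genes span from 0.0612 to 3890 FPKM.

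S100a4, also called metastasin, binds the heavy chain of nonmuscle myosin IIA (Myh9) and is linked to cell motility. Its FPKM was 3828, 3810 and 4032 in MinusDox 1, 2 and 3 and 2544, 2663 and 2554 in PlusDox 1, 2 and 3. Each PlusDox library was below each MinusDox library. By limma, S100a4 fell by 33.5% (95% interval -36.7 to -30.1), a log2 fold change of -0.59 ± 0.03 (SE) with an adjusted p of 8.26e-05. It passed under all 17 alternative settings tried, with log2 fold changes between -0.61 and -0.53. The mean difference of -1303 FPKM was the third largest fall in FPKM of all genes tested, and the rank of S100a4 among all genes by level went from 7 to 16.

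S100a4 has a neighbour that matters for its counting. The gene Gm42674 overlaps it on the same strand over 2115 bases, and 60.6% of the S100a4 transcript (302 bases) has a near-identical counterpart in Gm42674. No row of the table matched Gm42674 by symbol or by gene identifier. How the authors' counting shared reads between these annotations was not tested.

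S100a6, calcyclin, is abundant in proliferating cells and fibroblasts and binds the calcyclin-binding protein encoded by Cacybp. Its FPKM was 3140, 3060 and 3160 without Dox and 2746, 2799 and 2812 with Dox. The groups did not overlap, but they were much closer than those of S100a4. S100a6 fell by 10.7% (95% interval -13.8 to -7.51), a log2 fold change of -0.16 ± 0.02 with a limma adjusted p of 0.00363. The call depended on which scaling was used. Quantile normalization, which gives all libraries the same distribution of values, turned the log2 fold change to 0.02 with an adjusted p of 0.706. Scaling to equal medians kept the call, at -0.16 with a limma adjusted p of 0.00213. Without the variance trend the adjusted p was 0.0542.

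The order of the 2 leading genes was reversed between the groups. S100a4 stood 1.22, 1.25 and 1.28 times as high as S100a6 in the MinusDox libraries and 0.926, 0.951 and 0.908 times as high in the PlusDox libraries. The ratio is formed within a library, so a factor common to the whole library cancels. Quantile normalization is not such a factor. The ratio was above 1 in every MinusDox library and below 1 in every PlusDox library. It carries the open question of how reads were shared between S100a4 and Gm42674.

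S100a10, or p11, has lost the ability to bind calcium and forms a tetramer with annexin A2 at the plasma membrane, where it also binds plasminogen and the giant scaffold protein AHNAK. Its FPKM was 983, 974 and 995 without Dox and 851, 902 and 892 with Dox. The highest PlusDox value lay below the lowest MinusDox value. S100a10 fell by 10.5% (95% interval -14.5 to -6.17), a log2 fold change of -0.16 ± 0.03 with a limma adjusted p of 0.0119, and only the fit without the variance trend ended the call (adjusted p = 0.0736).

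S100a11, calgizzarin, binds annexin A1 and annexin A2 and takes part in membrane repair. Its FPKM was 779, 798 and 717 without Dox and 880, 833 and 848 with Dox. All PlusDox values were above all MinusDox values, yet the log2 fold change of 0.16 ± 0.04 (95% interval 0.06 to 0.26) had a limma adjusted p of 0.0542 and did not pass. With a minimum mean of 5 FPKM, where fewer genes are tested, the adjusted p was 0.0468. The level of S100a11 is uncertain, since 58.1% of its transcript (297 bases) has near-identical copies in Gm12854 and Gm7665. Gm12854 was itself listed at 672, 716 and 632 FPKM without Dox and 705, 815 and 721 with Dox, so reads of S100a11 may stand under either name. The log2 fold change of Gm12854 was 0.15, close to that of S100a11, with a limma adjusted p of 0.188.

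S100a10 and S100a11 are next to each other in the genome, 28792 bases apart, and their levels drew together with Dox. The ratio of S100a10 to S100a11 was 1.26, 1.22 and 1.39 in the MinusDox libraries and 0.966, 1.08 and 1.05 in the PlusDox libraries. With Dox the ranges of the 2 genes overlapped, whereas without Dox every S100a10 value was above every S100a11 value. The ratio carries the uncertainty of S100a11.

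**Figure D2:**
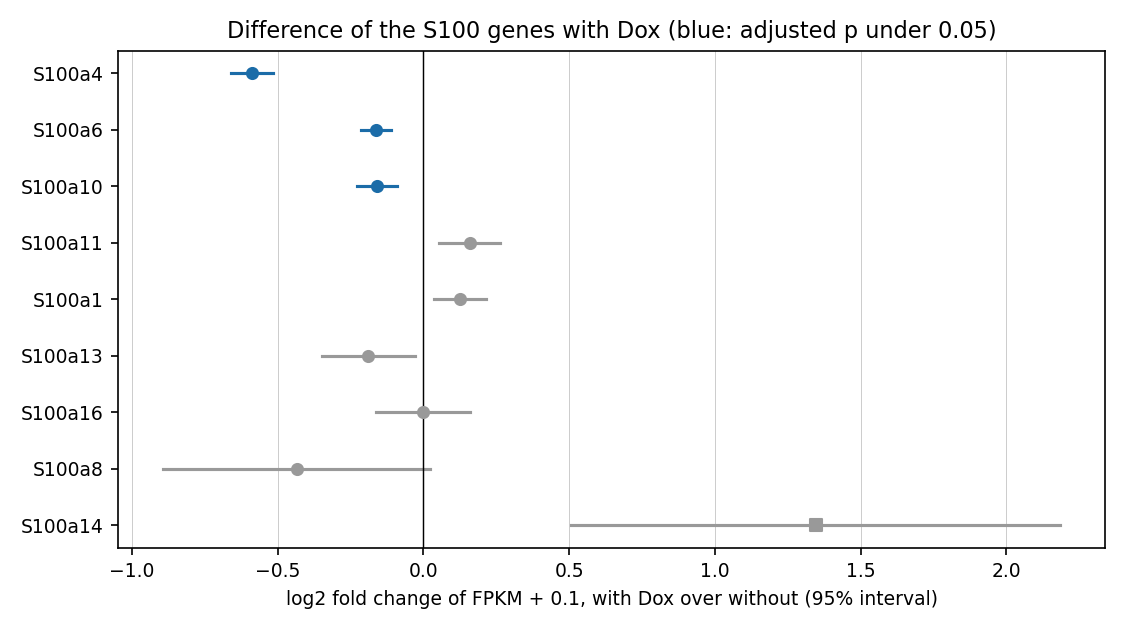
log2 fold change of FPKM + 0.1 with Dox over without (points) and its 95% interval (lines) from limma for 9 S100 genes, with genes that passed in blue. The square marks S100a14, which was below the minimum level and comes from the fit of all genes above 0; S100a4, at -0.59, lies apart from S100a6 and S100a10, both at -0.16.

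S100a1 is best known from heart and skeletal muscle, where it regulates calcium release and uptake. Here it was expressed at 247, 254 and 234 FPKM without Dox and 262, 270 and 270 with Dox. The PlusDox values were all higher, by little, and the log2 fold change of 0.12 ± 0.04 (95% interval 0.04 to 0.21) did not pass (limma adjusted p = 0.0719). S100a13, which assists the export of FGF1 and interleukin 1 alpha by a route that bypasses the secretory pathway, had 77.8, 71.2 and 84.0 FPKM without Dox and 65.7, 71.6 and 66.6 with it. Its groups overlapped, and the log2 fold change of -0.19 ± 0.07 (95% interval -0.35 to -0.03) had a limma adjusted p of 0.116.

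S100a1 and S100a13 share the 42-base stretch between their GENCODE starts, and their estimates had opposite signs, although neither passed. The ratio of S100a1 to S100a13 was 3.17, 3.58 and 2.79 in the MinusDox libraries and 3.98, 3.77 and 4.05 in the PlusDox libraries. It was higher in each PlusDox library than in any MinusDox library. With 3 libraries against 3, no permutation test of such a ratio can pass the threshold, and none is given.

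S100a16, a broadly expressed member, was the gene with the smallest difference. Its FPKM was 48.9, 53.5 and 51.0 without Dox and 49.9, 55.9 and 47.7 with Dox. The groups overlapped, and the 95% interval of the log2 fold change, -0.16 to 0.16 around 0.00, leaves out changes beyond about 11.8% in the upward and -10.6% in the downward direction (limma adjusted p = 0.997).

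S100a8 and S100a9 encode the subunits of calprotectin, the heterodimer that myeloid cells release and that binds TLR4 and RAGE. S100a9 is listed at 0 in all 6 libraries. S100a8 was at 8.65, 10.9 and 8.40 FPKM without Dox and 8.55, 5.19 and 7.12 with Dox. The groups overlapped, the spread was wide for the level, and the log2 fold change of -0.44 ± 0.19 (95% interval -0.89 to 0.02) did not pass (limma adjusted p = 0.190). From the smallest steps of the table, about 45 to 63 reads per library stood behind these S100a8 values. The subunits were therefore not listed together: S100a8 was present without a listed S100a9 in every library.

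Since S100a8 marks myeloid cells, the leukocyte markers are given beside it. Of 15 markers, 6 (Adgre1, Mpo, Cd3e, Ngp, Ltf and Camp) were at 0 in every library and 6 more were below 1 FPKM on average, including Ptprc, the pan-leukocyte gene CD45, at no more than 0.161 FPKM. The 3 that reached 1 FPKM were Cd68 (6.31 to 11.3 FPKM), Itgb2 (1.67 to 2.85) and Lyz2 (0.940 to 2.65), and 96.0% of the Lyz2 transcript is also found in Lyz1. The summed level of the 15 was 9.62 to 17.0 FPKM without Dox and 9.58 to 11.2 with Dox, and by limma 0 of the 3 tested passed, also with 0 at an unadjusted p under 0.05 and 0 in the unmoderated model. The neutrophil genes of the list (Ly6g, Mpo, Elane, Camp, Ngp and Ltf) were at no more than 0.163 FPKM. Cd68 was at a level like that of S100a8 (5.19 to 10.9 FPKM). The log2 fold changes of Cd68, Itgb2 and Lyz2 were -0.35, -0.31 and -0.56, beside -0.44 for S100a8, and none of these genes passed. The source of the S100a8 reads was not tested.

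S100a14, found mainly in epithelia, was the member with the lowest level above 0. Its FPKM was 0, 0.117 and 0.0670 without Dox and 0.266, 0.293 and 0.312 with Dox. Every PlusDox value was above every MinusDox value. S100a14 was below the minimum mean of 1 FPKM, and in the fit of all 20513 genes above 0 in any library, where 3.81% were called higher, its log2 fold change was 1.35 ± 0.34 (95% interval 0.51 to 2.18) with a limma adjusted p of 0.0751. Few reads stood behind it, about 0, 1.4 and 1.1 in the MinusDox libraries and 3.3, 5.5 and 4.4 in the PlusDox libraries. The size of the change depended on the pseudocount and ranged from 0.28 to 2.70 on the log2 scale; it passed with a pseudocount of 1 (adjusted p = 0.0333). Cdh1, likewise tested without the minimum level, rose from 0.0585 ± 0.0180 to 0.828 ± 0.361 FPKM (limma adjusted p = 0.0125), a call that was lost without MinusDox 2 (0.0503), without MinusDox 3 (0.0505), in the unmoderated model (0.0983) and when the replicate numbers were blocked (0.0722).

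By level, the order without Dox was S100a4, S100a6, S100a10, S100a11, S100a1, S100a13, S100a16, S100a8, S100a14 and S100a9. In 8 of the 9 neighbouring pairs of that order the ranges over the 3 libraries did not touch; the exception was S100a14 and S100a9, both with a value of 0. With Dox the order was the same except that S100a6 came before S100a4, and again 8 of 9 neighbouring pairs were apart, here with S100a10 and S100a11 as the exception. The 3 genes at the top of the order were those called lower. S100a13 (-0.19 ± 0.07) and S100a8 (-0.44 ± 0.19) had lower estimates than S100a6 and S100a10, with wider standard errors, and did not pass. The lowest gene with any reads, S100a14, had the largest estimate upward, from a handful of reads.

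**Figure D3:**
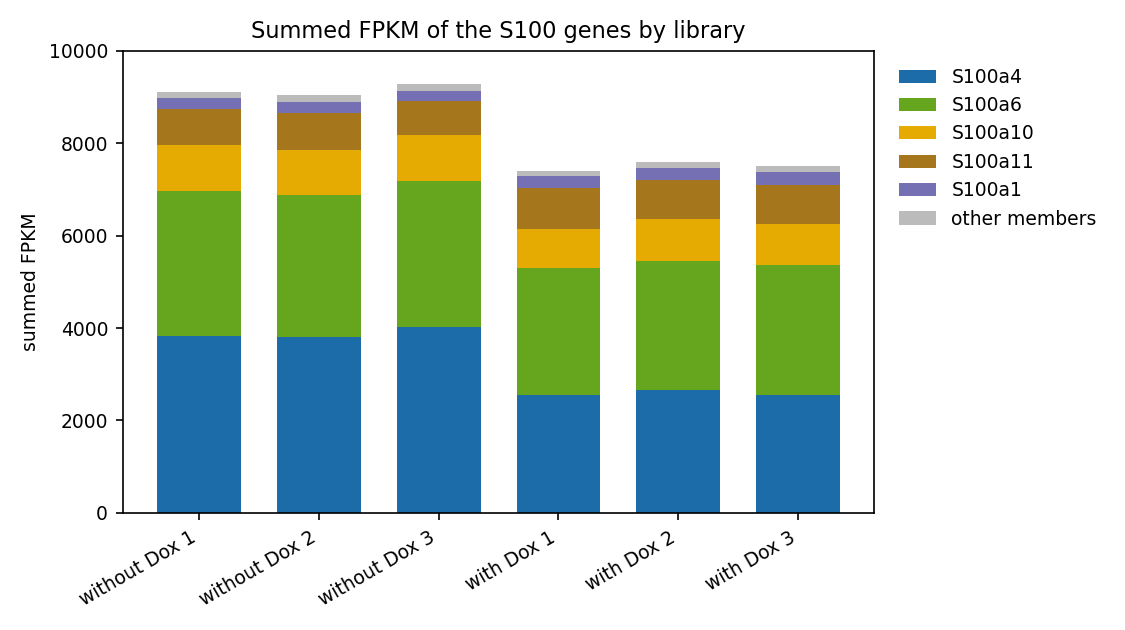
Summed FPKM of the 10 S100 genes in each library, stacked by gene, with the 5 genes at the lowest levels joined as other members. The 3 PlusDox bars end at 7407 to 7599 FPKM and the 3 MinusDox bars at 9033 to 9281, and the S100a4 segment makes up most of the difference.

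Together the 10 genes gave 9142 ± 127 FPKM without Dox and 7501 ± 96.4 with Dox (SD, n = 3), which is 1.14% and 0.931% of all FPKM. The groups did not overlap, at 9033 to 9281 and 7407 to 7599 FPKM. S100a4 accounted for 79.4% of the difference of -1641 FPKM. Its share of the sum was 42.5% ± 0.782 without Dox and 34.5% ± 0.498 with Dox, while that of S100a6 was 34.1% ± 0.298 and 37.1% ± 0.345. Without S100a4 the sum was 5252 ± 30.8 and 4914 ± 44.3 FPKM. The 4 most abundant genes made up 95.8% and 94.8% of the sum, so S100a1, S100a13, S100a16, S100a8, S100a14 and S100a9 hardly weighed in it.

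**Figure D4:**
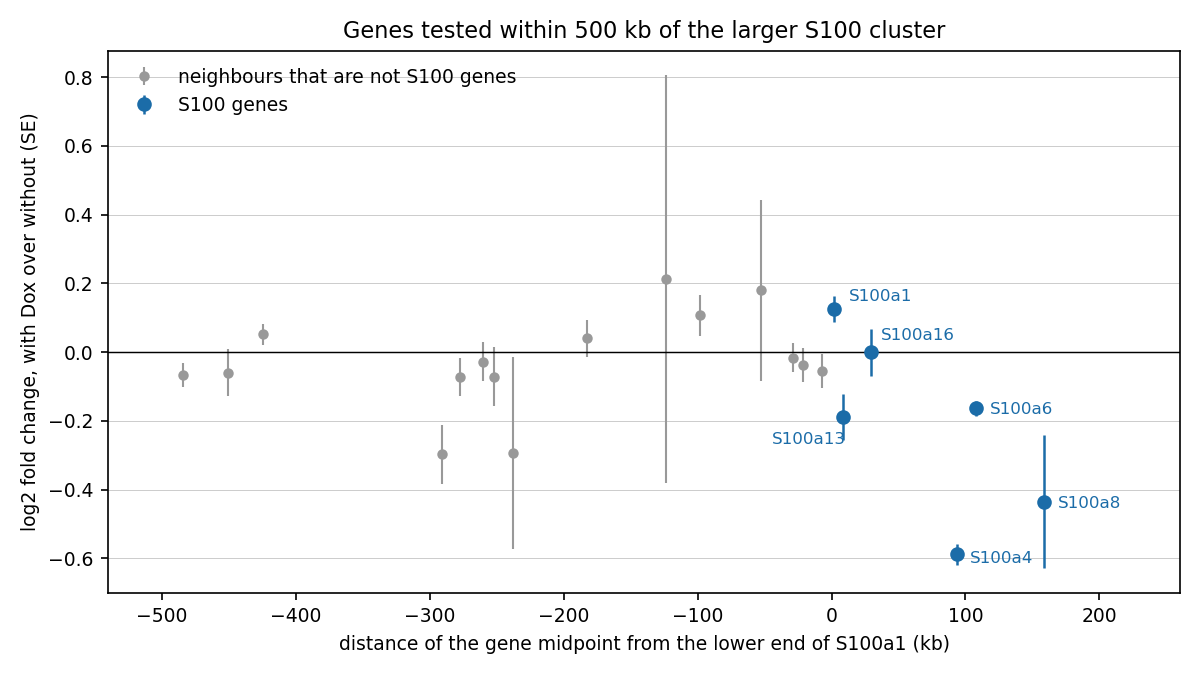
log2 fold change with Dox over without (points) and its standard error (bars) against the distance of each gene's midpoint from the lower end of S100a1, for the tested S100 genes of the first group in blue and the tested protein-coding neighbours within 500 kb in grey. The grey genes lie between -0.30 and 0.21, and S100a4 lies below all of them, at -0.59.

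The neighbouring genes were examined to see whether the S100 differences belonged to a wider stretch of chromosome 3. Of 39 protein-coding genes within 500 kb that are not S100 genes, 38 were in the table and 15 reached the minimum level, all of them on the side of S100a1. By limma 0 of the 15 passed, 1 was lower at an unadjusted p under 0.05 and 0 passed in the unmoderated model. Their log2 fold changes ran from -0.30 to 0.21, and groups did not overlap in 2 of the 15, compared with 35.0% of all genes tested. The lowest was Rab13, named after its values were seen, at -0.30 (limma adjusted p = 0.0602). Rab13 passed with the replicate number as a block (limma adjusted p = 0.0465). Within the first group S100a4, S100a6, S100a8 and S100a13 had negative estimates, S100a1 a positive one and S100a16 one near 0. None of the 17 neighbours of S100a11 and S100a10 reached the minimum level. Of these, Gm9117 and Gm9125, named after their values were seen, passed in the fit without it (adjusted p = 0.0390 and 0.0391) at no more than 0.172 FPKM, and their transcripts are copies of each other and of Tdpoz1 over their whole length.

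The S100 genes outside the 10 added little. Of 8 others listed, 7 were in the table, S100a2 and S100z were at 0 in every library, and S100g, S100a5 and S100b averaged under 1 FPKM. S100a3 averaged 13.7 ± 1.52 FPKM without Dox and 11.9 ± 3.30 with Dox, and S100a7a, which shares repeated sequence with many transcripts, was at 3.83 to 7.66 and 4.47 to 6.09. The groups of both overlapped, and by limma 0 of the 2 passed, with 0 at an unadjusted p under 0.05 and 0 in the unmoderated model. Of 7 S100-fused genes such as Flg and Hrnr, large proteins of the skin barrier that begin with an S100 domain, 6 were at 0 and Flg2 was at no more than 0.125 FPKM.

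Annexins are calcium-dependent membrane-binding proteins and the best-known partners of S100a10 and S100a11. Of 10 annexins tested, 3 rose (30%), 1 fell (10%) and 6 did not pass, beside 7.06% higher and 7.97% lower across all genes tested. At an unadjusted p under 0.05, limma gave 3 higher and 2 lower annexins, and the unmoderated model 3 and 1 after adjustment. Groups did not overlap in 6 of the 10, compared with 35.0% of all genes tested. Anxa4 rose from 79.0 ± 3.11 to 102 ± 1.56 FPKM (log2 fold change 0.38 ± 0.04, limma adjusted p = 0.00161), Anxa7 from 45.0 ± 2.16 to 56.8 ± 2.36 (0.33 ± 0.05, adjusted p = 0.00833) and Anxa3 from 825 ± 9.84 to 937 ± 22.8 (0.18 ± 0.03, adjusted p = 0.00501). These 3 calls held under all 17 alternatives. Anxa5, known from the detection of dying cells, fell from 214 ± 6.60 to 191 ± 6.14 FPKM (log2 fold change -0.16 ± 0.04, adjusted p = 0.0322), a call that was lost when any library but PlusDox 2 was left out, with adjusted p of 0.0593 to 0.108.

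The partners proper of S100a10 and S100a11 did not pass. Anxa2, which forms the tetramer with S100a10, was at 1554, 1570 and 1569 FPKM without Dox and 1520, 1557 and 1522 with Dox, overlapping between groups, with a log2 fold change of -0.03 (95% interval -0.08 to 0.02, limma adjusted p = 0.406). The ratio of Anxa2 to S100a10 was 1.58 to 1.61 in the MinusDox libraries and 1.71 to 1.79 in the PlusDox libraries, which did not overlap. Anxa1, the partner of S100a11, was at 137 to 154 FPKM and 140 to 150, and Ahnak, which binds the S100a10 tetramer, was at 256 to 261 and 272 to 281 (adjusted p = 0.0919).

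**Figure D5:**
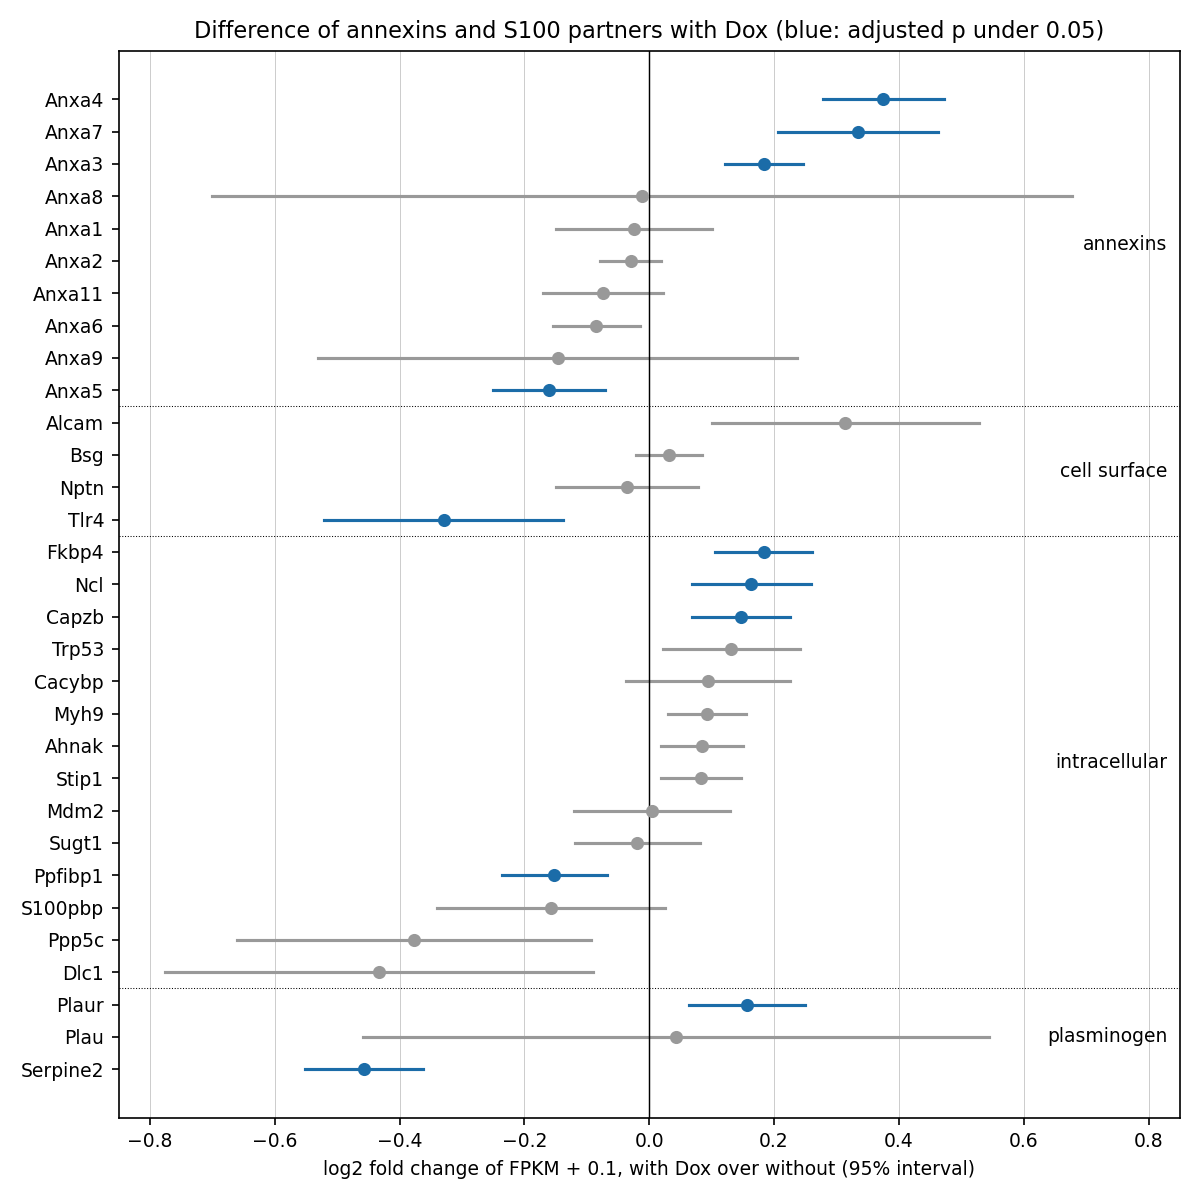
log2 fold change of FPKM + 0.1 with Dox over without (points) and its 95% interval (lines) for tested annexins, surface receptors, intracellular partners and plasminogen genes, with genes that passed by limma in blue. Anxa4, at 0.38, and Serpine2, at -0.46, have the largest changes among those that passed, and Anxa2 lies near 0.

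Among 14 intracellular partners tested, 3 rose (21.4%), 1 fell (7.14%) and 10 did not pass. Across all genes tested, 7.06% were called higher and 7.97% lower. At an unadjusted p under 0.05, limma gave 7 higher and 3 lower partners, and the unmoderated model 2 and 1 after adjustment. Groups did not overlap in 10 of the 14, compared with 35.0% of all genes tested. Myh9, the myosin that S100a4 binds, was at 410, 422 and 423 FPKM without Dox and 443, 453 and 442 with Dox; its groups did not overlap, and its log2 fold change of 0.09 ± 0.03 had a limma adjusted p of 0.0618. The ratio of S100a4 to Myh9 was 9.03 to 9.53 in the MinusDox libraries and 5.74 to 5.88 in the PlusDox libraries. Ppfibp1, encoding liprin beta 1, another S100a4 partner, fell from 100 ± 1.04 to 90.1 ± 2.33 FPKM (log2 fold change -0.15 ± 0.04, adjusted p = 0.0315), and the call was lost without any 1 of the 6 libraries (adjusted p = 0.0583 to 0.0931). Cacybp, the S100a6 partner, was at 105 to 112 and 109 to 125 FPKM and overlapped.

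The 3 that rose were Fkbp4, a co-chaperone of HSP90, Ncl, the nucleolar protein nucleolin, and Capzb, a subunit of the actin capping protein. Fkbp4 rose from 195 ± 4.40 to 221 ± 5.16 FPKM (log2 fold change 0.18 ± 0.03, limma adjusted p = 0.0119) and lost the call only without the variance trend (0.0511). Ncl rose by 0.16 ± 0.04 on the log2 scale (adjusted p = 0.0372), a call lost when any library but PlusDox 2 was left out (0.0551 to 0.109), and Capzb by 0.15 ± 0.03 (adjusted p = 0.0282), lost without any library but MinusDox 2 (0.0649 to 0.0846). The letters CAGTATT were present in the 3′ UTRs of 4 of the 14, Ahnak, Sugt1, S100pbp and Dlc1, named after the search; none of these 4 passed the test. Dlc1, a GTPase-activating tumor suppressor that S100a10 binds, holds 2 matches and was at 5.93, 5.66 and 5.65 FPKM without Dox and 3.76, 3.91 and 5.15 with Dox (log2 fold change -0.43 ± 0.15, adjusted p = 0.0966).

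Of the receptors that released S100 proteins act on, Ager averaged 0.315 and 0.531 FPKM, below the minimum level, and 4 others were tested. Tlr4, a receptor of calprotectin, fell from 22.3 ± 2.21 to 17.7 ± 0.257 FPKM (log2 fold change -0.33 ± 0.08, limma adjusted p = 0.0372), and the call was lost without any library but MinusDox 1 (0.0943 to 0.108). Bsg (915 to 920 and 924 to 954 FPKM), Nptn (370 to 413 and 365 to 393) and Alcam (16.9 to 20.1 and 20.7 to 24.5, adjusted p = 0.0620) did not pass. On the plasminogen pathway, which meets S100a10 at the cell surface, Serpine2, an inhibitor of plasminogen activators and thrombin, fell from 233 ± 5.98 to 169 ± 6.96 FPKM (log2 fold change -0.46 ± 0.04, adjusted p = 0.000657) under all 17 alternatives. Plaur, the urokinase receptor, rose from 103 ± 3.81 to 114 ± 1.88 FPKM (adjusted p = 0.0390), a call lost without any library but MinusDox 1 (0.0734 to 0.125), and Plau did not pass. Of the cargo of S100a13, Il1a is listed at 0, and Fgf1, at 0.291 to 3.16 FPKM and 0.787 to 2.53, did not pass.

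Other EF-hand genes served as a comparison from the same protein fold. Of 13 tested, 3 fell (23.1%), 0 rose and 10 did not pass. Of the 8 S100 genes tested 37.5% fell, and of all genes tested 7.97% were called lower and 7.06% higher. At an unadjusted p under 0.05, limma gave 1 higher and 5 lower EF-hand genes, and the unmoderated model 0 higher and 2 lower. Groups did not overlap in 8 of the 13, compared with 35.0% of all genes tested. Calu, encoding calumenin of the secretory pathway, fell from 488 ± 11.4 to 421 ± 3.28 FPKM (log2 fold change -0.21 ± 0.03, limma adjusted p = 0.00322) under all 17 alternatives, and its 3′ UTR holds 1 seed match, shown with the match in capitals.
Calu bases 1131 to 1137: caggagctaaatagCAGTATTcattac
Capn2, the catalytic subunit of a calpain, fell by 0.15 ± 0.04 on the log2 scale (limma adjusted p = 0.0308), a call lost without any library but PlusDox 1 (0.0665 to 0.105). The fall of S100a4, at -0.59, was the largest in size among the tested S100 genes and these 13 genes.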

How the data were processed

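mRNA libraries of 6 Met-1 TripZ-200c cultures were grouped by the treatment in the sample labels, 3 per group. The authors sequenced stranded libraries as single reads, mapped them with gSNAP to the mouse genome (GRCm38.p6 and an FVB/NJ assembly are named) and deposited FPKM per gene and library from Cufflinks. FPKM divides by gene length and library size, so the read number is not in the table. Deposited group means, fold scores, p-values and q-values were not used, and 0 columns of per-sample values were left unused.

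Of 43611 rows, 63 that repeated an identifier were dropped, and 6 placeholder values in 4 genes were set to missing. The 12879 genes that averaged 1 FPKM or more were compared on log2(FPKM + 0.1), a scale that understates changes of low genes, with limma 3.58.1 in R 4.3.3 (eBayes with a trend) and Benjamini-Hochberg adjustment at 0.05. Genes below that mean were taken from the same model without the minimum. The procedure was run on simulated data with planted log2 changes of 1 up or down. These are larger than the changes of the S100 genes called, so the simulation does not cover calls of that size. The reads behind low values were estimated from the smallest step of FPKM. Positions and 3′ UTRs are from GENCODE and promoters and the miRNA from RefSeq, both on GRCm38, read with Python 3.11.15. Shared sequence was found with BLAST 2.17.0 (at least 95% identity over 50 bases and 10% of the length).

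The S100 genes and the lists of other genes were chosen with earlier results of these data known. Named are all 10 S100 genes and the genes of each list that passed without overlap between groups (up to 8 by size of change). Also named are the other S100 genes above 0 and neighbours within 500 kb that passed. Partners that did not pass and the neighbour Rab13 were added after their values were seen. The alternatives were other pseudocounts, filters, scalings and variance models, the replicate number as a block, and each library left out. A few genes of the lists are not reported here by name.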

Additional observations from a re-analysis of the deposited data

How the results depend on the processing

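Depth limits the low genes most, since S100a14 rests on a handful of reads and S100a9 is listed at 0, and near-identical copies leave the share of reads given to S100a4 and S100a11 open to the authors' counting. Of 599 recomputed values of single genes, 505 kept their direction and side of the threshold, 75 no longer passed, 7 newly passed and 12 changed sign. The counts of S100 genes called were 0 higher and 3 lower in every setting except that 1 was higher with a minimum mean of 5 FPKM (S100a11, by the smaller number of genes tested), that 2 were lower after quantile normalization (S100a4 and S100a10) and that 1 was lower without the variance trend (S100a4); for the last 2 the cause was not tested. The summed difference was -1116.9 FPKM after quantile normalization, where the cause was not tested, and -1696 to -1571.6 FPKM with a library left out.

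Over all genes, 598 were higher in the unmoderated model on log2(FPKM + 1). With a library left out, 479 to 688 genes were higher and 590 to 709 lower, and the S100 genes stayed at 0 higher and 3 lower. Scaling moved the median log2 fold change of all genes little (0.00387 as reported, 0.00226 after quantile normalization and 0.00537 with equal medians).

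The sign changed for S100a6 under quantile normalization (0.0207) and for S100a16 with equal medians (0.0011). With 1 library left out, the log2 fold change ran from -0.0653 to 0.0482 for S100a16 (positive without MinusDox 2, PlusDox 1 or PlusDox 3), from -0.378 to 0.0118 for S100a3 (positive without PlusDox 3), from -0.0757 to 0.416 for S100a7a (negative without MinusDox 1, MinusDox 2 or PlusDox 2) and from -1.26 to 0.969 for S100g (positive without MinusDox 1, MinusDox 2 or PlusDox 3). S100a6 apart, these genes did not pass in any setting, and the cause was not tested.

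The replicate numbers are shared by the groups, but same-numbered libraries did not deviate together (correlations of 0.0287, 0.0359 and -0.00759), so they were not taken as pairs. With the replicate number as a block, 633 genes were higher and 704 lower, and the S100 genes were again 0 higher and 3 lower.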
